A study of Macaca mulatta and Mus musculus with 5 samples.

Results

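The cells described here are B cells of rhesus macaque meninges and spleen in which a transcript of FCRL5 or ITGAX was counted. They were taken from 10x 3′-end single-cell libraries as barcodes with 300 or more detected genes, at least 1 UMI (unique molecular identifier, a counted transcript) of MS4A1, no UMI of FCER2, and at least 1 UMI of FCRL5 or ITGAX. Barcodes with any UMI of RAG1, RAG2, VPREB1, RGS13, CD3E or NKG7 were left out, and a gene missing from a table counted as 0. Of 20998 macaque barcodes with 300 or more genes, 1935 met the rule: 333 and 359 in the meningeal channels 1 and 2, against 575 and 668 in the spleen channels 1 and 2. Meningeal and splenic cells came from female Chinese rhesus macaques of 4 to 8 years, with no treatment named, and 8000 sorted cells were loaded per channel in 2 channels per tissue. The sort is written CD45–CD11b–CD3–, where the dashes may mean absence of a marker or only separate the names. PTPRC, the gene of CD45, had a UMI in 92.8% and 93.6% of the meningeal cells chosen here, against 91.5% and 88.3% of the splenic ones. The labels do not say whether channels hold different animals, so every p-value below measures only the spread between channels, which may be technical, and tissue cannot be told apart from the way each tissue was handled.

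MS4A1 encodes CD20, a surface protein of mature B cells, and FCER2 encodes CD23, which is typical of resting follicular B cells. FCRL5 is an Fc receptor-like protein with inhibitory signalling motifs that binds immunoglobulin G, and ITGAX encodes CD11c, an integrin chain of myeloid, dendritic and NK cells and of some B cells. In humans, B cells with CD11c or FCRL5 and little CD21 are called atypical memory B cells. They accumulate in chronic infection, autoimmune disease and old age, often express the transcription factor T-bet, and carry the transcription factor SOX5 and several inhibitory receptors. SOX5, SSPN and PDLIM1 are further markers of this name that the gate did not read. They were set with earlier results of these data known, so they describe the cells and are no independent check.

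The channels held 19.0 and 19.8 M UMIs in meninges, against 20.1 and 22.0 M in spleen. The chosen cells gave sums of 1.80 and 2.02 M UMIs in meninges, against 2.13 and 2.04 M in spleen, and all levels below are given as CPM, the UMIs of a gene for each 1 M UMIs of such a sum. Cells were deeper in meninges, with median UMIs of 5309 and 5431 per chosen cell, against 3276 and 2628 in spleen. Channels shared between 4 and 11 barcodes in pairs, and no chosen cell's barcode was shared.

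FCRL5- or ITGAX-positive cells made up a larger share of FCER2-negative B cells in meninges than in spleen as counted, and an overlapping share once cells were thinned to 1000 UMIs. As counted, they were 41.1% (exact 95% binomial interval 37.7 to 44.5) and 37.4% (34.3 to 40.5) of the MS4A1-positive, FCER2-negative cells in meninges, against 22.2% (20.6 to 23.8) and 21.1% (19.7 to 22.6) in spleen. Intervals cover counting error only. The means were 39.2% ± 2.62 in meninges and 21.7% ± 0.737 in spleen (SD, n = 2 each), a difference of 17.6 percentage points with an exact two-sided permutation p of 0.3333, the smallest that 2 channels against 2 can give. With every cell thinned to 1000 UMIs before the gate, the shares were 11.1% and 13.4% in meninges, against 12.1% and 10.2% in spleen. These thinned values overlapped between the tissues, with an exact permutation p of 0.667. Thinning left out 21 and 14 of the chosen meningeal cells, against 119 and 124 of the splenic ones, as shallower than 1000 UMIs. Of the FCER2-negative B cells with neither gene it left out 62 of 478 and 87 of 602 in meninges, against 972 of 2018 and 734 of 2493 in spleen. Among the cells kept, the full-depth gate chose 312 and 345 in meninges, beside 416 and 515 with neither gene. In spleen it chose 456 and 544, beside 1046 and 1759. At full depth, the chosen cells were thus a larger part of the kept cells in each meningeal channel than in either spleen channel. Read after thinning, the FCER2-negative B cells numbered 995 and 1086 in meninges, against 2289 and 3246 in spleen. Cells that lost their UMIs of FCER2 or of an excluded gene had entered. The thinned shares therefore merge the loss of shallow cells, the entry of other cells and a gate read at lower depth. Among all barcodes the unthinned shares were 8.19% and 8.33% in meninges, against 9.85% in each spleen channel, and they depend on what else the sort held.

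**Figure D1:**
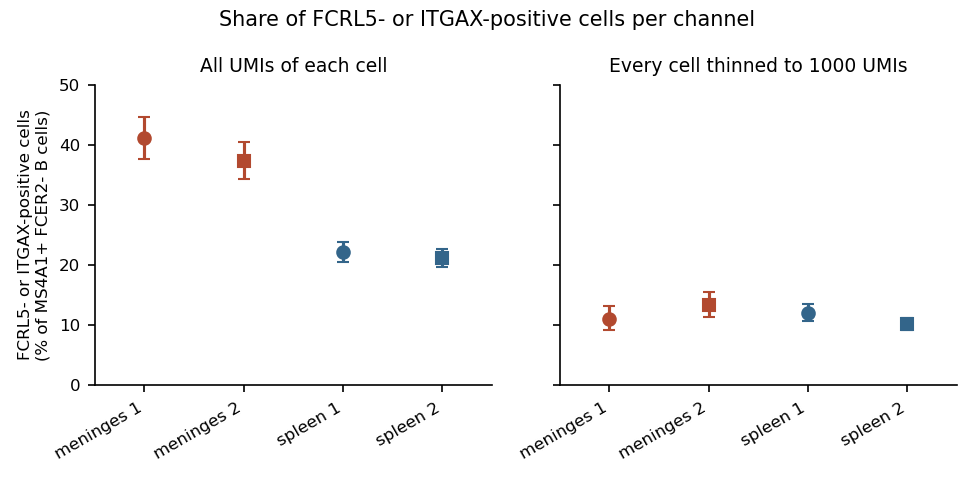
Share of FCRL5- or ITGAX-positive cells among MS4A1-positive, FCER2-negative B cells (%, y axis) in each channel, from all UMIs (left) and with each cell thinned to 1000 UMIs (right); bars are exact 95% binomial intervals. On the left the meningeal channels lie at 41.1% and 37.4%, above the spleen channels at 22.2% and 21.1%; on the right the tissues overlap between 10.2% and 13.4%.

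Of the 3 markers outside the gate, SOX5 and PDLIM1 were higher in the chosen cells than in both other classes of B cells. SSPN was higher only than in FCER2-positive cells. SOX5 had 96.8 and 78.4 CPM in the chosen meningeal cells and 78.7 and 74.1 CPM in the chosen splenic cells, against 29.5 and 26.7 CPM in meninges and 27.3 and 22.8 CPM in spleen in FCER2-negative B cells with neither FCRL5 nor ITGAX. FCER2-positive B cells had 12.9 and 12.5 CPM of SOX5 in meninges and 17.7 and 15.1 CPM in spleen, the lowest of the 3 classes in every channel. The log2 difference was 1.60 ± 0.10 (SE, adjusted p = 9.45e-07) from the FCER2-negative cells with neither gene, and 2.33 ± 0.14 (adjusted p = 9.28e-06) from the FCER2-positive cells. PDLIM1, a cytoskeletal adaptor, had 166 and 157 CPM in meninges and 85.7 and 88.4 CPM in spleen, against 58.4 and 52.6 CPM in meninges and 40.3 and 46.3 CPM in spleen in cells with neither gene (log2 difference 1.24 ± 0.11, adjusted p = 1.86e-05). SSPN, the membrane protein sarcospan, separated the chosen cells from FCER2-positive cells (2.23 ± 0.20, adjusted p = 5.74e-05) but did not pass the threshold against cells with neither gene (0.39 ± 0.14, adjusted p = 0.0857), though it did after thinning (0.70, adjusted p = 0.0111) and without meninges 1 (0.59, adjusted p = 0.00631). Its levels in those 2 classes overlapped between channels.

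Most chosen cells showed few of these transcripts. A UMI of SOX5, SSPN or PDLIM1 was found in 66.4% and 64.6% of the chosen meningeal cells and 46.1% and 41.5% of the splenic ones, against 31.6% and 28.1% in meninges and 18.1% and 21.8% in spleen for cells with neither gate gene. In cells with NKG7 and no MS4A1, taken for comparison although they need not lack these transcripts, the share was 5.09% and 5.81% in meninges and 4.33% and 3.36% in spleen, at median depths of 3703.5, 3708, 2139.5 and 1902 UMIs. At 1000 UMIs per cell the chosen cells had 29.8% and 28.4% in meninges and 21.9% and 23.7% in spleen, above all 3 other classes in each channel. Here the classes were set at full depth and only the counts were then thinned, unlike in the thinned shares. TBX21, which encodes T-bet, was sparse: it had a UMI in 3.90% and 4.46% of the chosen meningeal cells and 4.52% and 3.59% of the splenic ones, close to its 3.63%, 3.27%, 4.00% and 4.13% in NKG7-positive cells, which express T-bet themselves. FCRL4, an atypical memory marker of human tonsil, was not listed in the meningeal tables and had 0 and 1 UMI in the splenic sums. CXCR3, a T-bet target that guides cells to inflamed tissue, had 0 and 2 UMIs in meninges, against 0 and 1 in spleen.

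**Figure D2:**
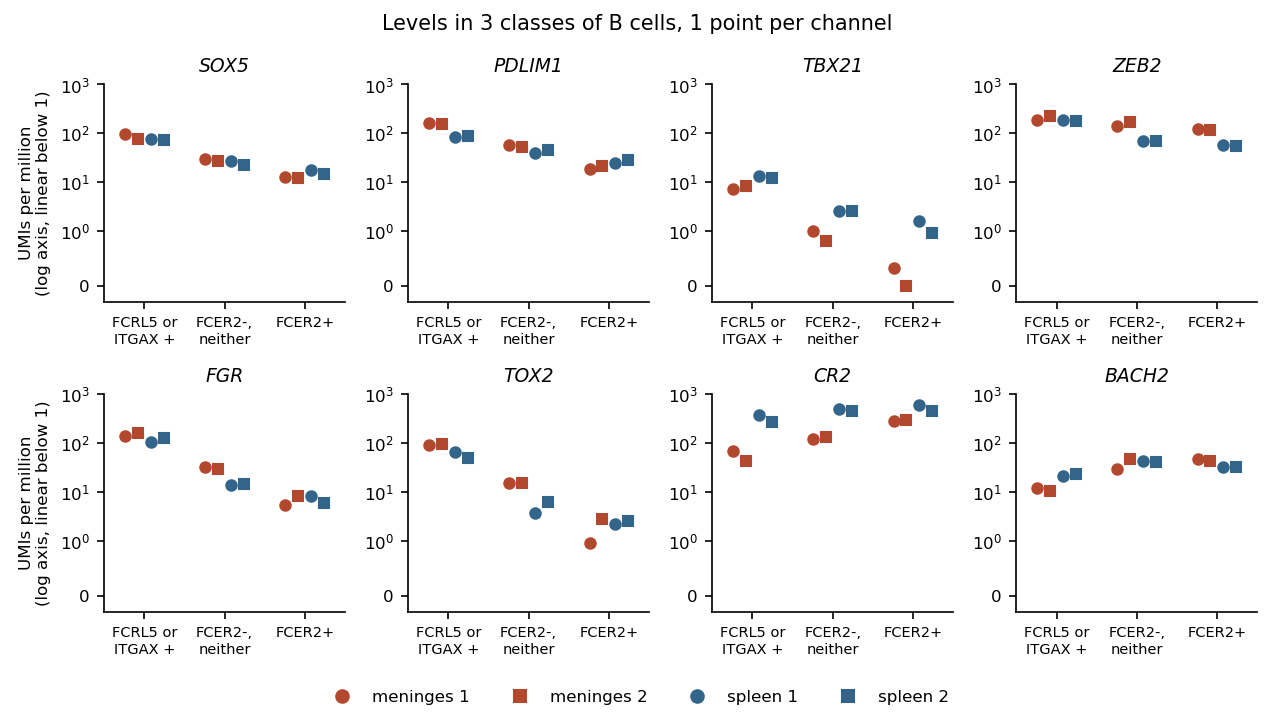
Levels of 8 genes (CPM, log axis that is linear below 1) in FCRL5- or ITGAX-positive cells, FCER2-negative B cells with neither gene, and FCER2-positive B cells, 1 point per channel. SOX5, PDLIM1, TBX21, FGR and TOX2 are highest in the FCRL5- or ITGAX-positive cells within each channel, while CR2 and BACH2 are lowest there.

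The gate set the levels of FCRL5 and ITGAX, so these are description only. FCRL5 was counted in 174 and 183 chosen meningeal cells, against 373 and 354 splenic ones, and ITGAX in 257 and 276 meningeal cells, against 341 and 443 splenic ones. Both transcripts were seen in 98 and 100 meningeal cells, against 139 and 129 splenic ones. The gate often rested on little: exactly 1 UMI of the pair of genes admitted 149 and 150 of the meningeal cells, against 290 and 384 of the splenic cells. FCRL5 was seen in at most 0.363% of the NKG7-positive, MS4A1-negative cells of any channel, whereas ITGAX was seen in 20.4% and 18.6% of them in meninges and 30.3% and 24.8% in spleen.

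Levels of several genes in cells admitted by ITGAX and in cells admitted by FCRL5 alone are given here without a test. SOX5 had 106 and 74.7 CPM in meninges and 124 and 87.3 CPM in spleen in cells with ITGAX only, 114 and 107 CPM in meninges and 104 and 116 CPM in spleen in cells with both, and 56.4 and 47.7 CPM in meninges and 27.2 and 36.1 CPM in spleen in cells with FCRL5 only. In cells with neither gate gene SOX5 ranged from 22.8 to 29.5 CPM, near the splenic cells with FCRL5 only and below the meningeal ones. FGR, a Src-family kinase, was also lower with FCRL5 only, at 182 and 180 CPM in meninges and 162 and 172 CPM in spleen with ITGAX only, against 28.2 and 76.3 CPM in meninges and 38.5 and 52.1 CPM in spleen with FCRL5 only. CR2, which encodes the complement receptor CD21 that human atypical memory cells lack, had 31.8 and 13.9 CPM in meninges and 237 and 247 CPM in spleen with ITGAX only, against 216 and 162 CPM in meninges and 613 and 410 CPM in spleen with FCRL5 only. Cells with both genes had the lowest CR2, at 18.1 and 10.1 CPM in meninges and 162 and 103 CPM in spleen. In cells with neither gate gene CR2 had 124 and 133 CPM in meninges and 503 and 458 CPM in spleen. The cells with FCRL5 only were thus above those with neither gene in both meningeal channels and spleen 1, and below them in spleen 2. FCRL3, an Fc receptor-like gene, was instead lower with ITGAX only in each channel, at 35.5 and 33.9 CPM in meninges and 61.4 and 62.4 CPM in spleen with ITGAX only, against 44.6 and 64.4 CPM in meninges and 112 and 77.5 CPM in spleen with FCRL5 only. TBX21 was highest in the cells with both, at 14.4 and 11.8 CPM in meninges and 28.2 and 29.5 CPM in spleen. Cells admitted by exactly 1 UMI had 67.7 and 43.8 CPM of SOX5 in meninges and 38.9 and 58.2 CPM in spleen, against 118 and 99.2 CPM in meninges and 118 and 96.2 CPM in spleen for cells with 2 or more.

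**Figure D3:**
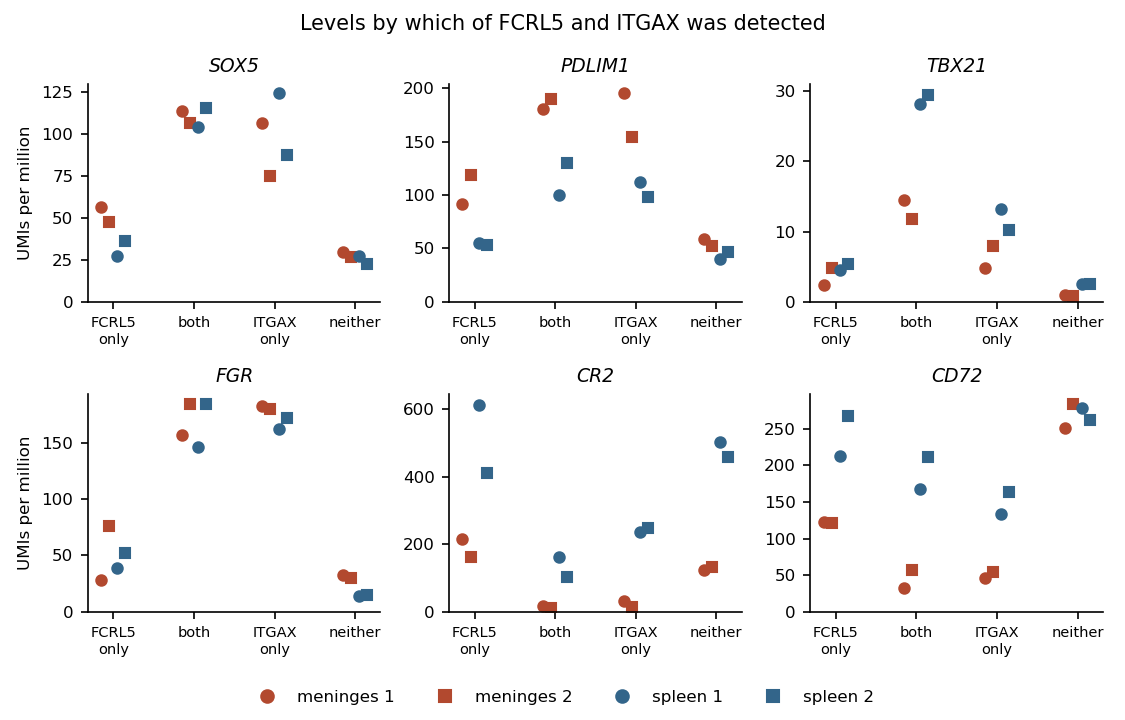
Levels (CPM, linear axes from 0) of 6 genes by which gate gene was detected in a cell: FCRL5 only, both, ITGAX only, or neither (FCER2-negative B cells outside the gate), 1 point per channel. SOX5, PDLIM1 and FGR are high wherever ITGAX was detected; CR2 and CD72 are low there, and lowest in meninges.

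Transcripts of other cell types were present in the chosen cells and differed between channels. No UMI of 12 myeloid, T-cell and NK genes was found in 154 of 333 and 143 of 359 chosen meningeal cells. In spleen this held for 375 of 575 and 448 of 668. A larger part of the meningeal cells, which were also deeper, thus held such a transcript, and its part in the tissue differences was not tested. The 19 listed myeloid genes summed to 313 and 1150 CPM in meninges, against 115 and 67.2 CPM in spleen, with 10 and 15 of them detected in meninges, against 9 and 9 in spleen. S100A9, VCAN and CLEC10A were at 0 in all 4 sums, CD14 was at 0 in meninges 1 only, and CD163 and MRC1 were seen only in meninges 2. The 9 listed NK genes summed to 136 and 178 CPM in meninges, against 49.7 and 66.3 CPM in spleen, and the 8 listed T-cell genes to 219 and 269 CPM, against 170 and 193 CPM. CD3D had 57.3 and 48.1 CPM in meninges, against 79.7 and 82.0 CPM in spleen, while NKG7-positive cells had 553 to 607 CPM. The listed genes of plasmacytoid dendritic cells summed to 465 and 461 CPM in meninges, against 481 and 467 CPM in spleen, with CLEC4C at 0 in all 4 sums, and stromal and vascular genes to 20.0 and 51.1 CPM, against 19.2 and 28.0 CPM, with COL1A2, COL3A1, DCN, CLDN5 and VWF at 0. ITGAM, the gene of CD11b, was counted in 9.61% and 11.4% of the chosen meningeal cells, against 3.83% and 3.74% of the splenic ones.

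Within the FCER2-negative B cells, the chosen cells had more of the human atypical memory genes than cells with neither gate gene in the same channel. Of 25 such genes tested, 20 were higher and 1 was lower, with a median log2 difference of 1.13, where 17.9% of all 9111 genes tested passed the threshold in either direction (9.76% higher, 8.15% lower) around a median of -0.01. The count of higher genes lay between 18 and 21 under the alternatives, with 18 of 24 tested after thinning. FGR had 138 and 160 CPM in meninges and 107 and 131 CPM in spleen, against 32.5 and 29.6 CPM in meninges and 13.8 and 14.6 CPM in spleen (log2 difference 2.66 ± 0.15, adjusted p = 8.18e-07). The other largest of the list were TBX21 at 2.47 ± 0.30, ZBTB32, a transcriptional repressor of B-cell recall, at 2.25 ± 0.25 (past the threshold except after thinning), and CD68, a lysosomal glycoprotein, at 1.90 ± 0.13. The member that was lower was CD72, an inhibitory co-receptor, at -1.19 ± 0.24 (adjusted p = 0.0051). The 10 gate genes were not tested, but the gate can also shift genes that are counted in the same cells as FCRL5 or ITGAX. Its part in these differences was not tested. The chosen cells were also deeper than those with neither gene, whose median UMIs were 4034.5 and 4048 in meninges and 1044.5 and 2150 in spleen.

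Of 12 tested genes that human atypical memory cells lose, 5 were lower and 1, the adhesion receptor gene CD44, was higher, at 0.57 ± 0.07. BACH2, a repressor that keeps B cells from plasma cell fate, had 12.2 and 10.4 CPM in meninges and 21.6 and 24.1 CPM in spleen in the chosen cells, against 30.5 and 48.5 CPM in meninges and 43.7 and 40.6 CPM in spleen in cells with neither gate gene. Its log2 difference was -1.26 ± 0.19, and -0.49 after thinning, below the threshold. Thinning came before the gate, so chosen cells that lost their FCRL5 and ITGAX UMIs then counted among the cells with neither gene. The part of this in the smaller value was not tested. CD200 differed by -1.11 ± 0.12 and CR2 by -0.83 ± 0.14, which became -1.77 with ITGAX alone as the gate gene. In the cells with FCRL5 only, CR2 was above the cells with neither gene in every channel but spleen 2. Of 13 follicular naive genes, many of them also on that list, 6 were lower and 1 higher.

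By size of the difference, TOX2, a chromatin-binding factor of the TOX family, came first among the named genes. It had 90.7 and 94.8 CPM in meninges and 65.6 and 50.6 CPM in spleen, against 15.2 and 15.2 CPM in meninges and 3.74 and 6.27 CPM in spleen (3.02 ± 0.20, adjusted p = 1.91e-06). LUZP1 (2.54), RGS16, which shortens G protein signals (2.28), TNFRSF18, the receptor GITR (2.14), DRAM1 (1.91), the semaphorin receptor PLXNC1 (1.82), the calcium-binding protein S100A4 (1.76), RIN3 (1.74), the lectin LGALS3 (1.73) and METRNL (1.72) followed on the log2 scale. In every channel these genes were higher in the chosen cells, which is part of how they were selected for naming. On the lower side were AKAP12 (-2.14, and -1.52 without meninges 2), VPREB3, a chaperone of B-cell receptor assembly in immature B cells (-2.05), RGS9 (-1.93), CALY (-1.88), DEPP1 (-1.85), the proliferation genes MKI67 (-1.59) and STMN1 (-1.54), GPR155 (-1.49), SYNE2 (-1.48), the DNA repair gene NEIL1 (-1.48), DCK (-1.42) and NUGGC (-1.36). VPREB3 had 21.1 and 13.4 CPM in meninges and 48.7 and 29.9 CPM in spleen, against 124 and 168 CPM in meninges and 92.6 and 95.8 CPM in spleen. It was also lower against FCER2-positive cells (-2.03). What part the make-up of the cells with neither gene had in this and the other differences was not tested.

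Memory, germinal centre and cell cycle lists also moved. Of 12 classical memory genes tested, 8 were higher and 1 lower (median 0.98), led after S100A4 by S100A10 (1.37 ± 0.08) and TNFRSF13B, which encodes TACI, a receptor for B-cell survival factors (1.33 ± 0.12). Of 8 germinal centre genes tested 7 were lower, with the transcription factor MYBL1 at -2.01 ± 0.18 and GCSAM at -1.87 ± 0.37, which did not pass (-1.35, adjusted p = 0.0532) in cells admitted by FCRL5. RGS13, a germinal centre gene, was 0 in both classes by the gate. Of 19 cell cycle genes 10 were lower and 0 higher, the largest being BIRC5 (-1.96 ± 0.52) and TYMS (-1.61 ± 0.40), neither past the threshold with DESeq2 (adjusted p = 0.139 and 0.572). BIRC5 was at -0.85 without spleen 2, and TYMS at -1.01 without spleen 1, also below the threshold.

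Surface and signalling genes moved in both directions. Of 20 homing genes 8 were higher and 6 lower: ITGAM (1.80 ± 0.23), SELPLG, a selectin ligand (1.36 ± 0.15), and ITGB2, the shared chain of CD11b and CD11c (1.31 ± 0.10), were higher. CXCR4, the receptor for CXCL12 that holds cells in marrow and germinal centre dark zones, was lower, at -1.28 ± 0.07, a gene named after its values were seen. Of 20 B-cell receptor signalling genes 7 were higher and 3 lower (CD72, CD79B at -0.89 ± 0.16 and BLNK at -0.58 ± 0.12, which did not pass in cells admitted by FCRL5 or after thinning). Of 14 inhibitory receptor genes 4 were higher and 3 lower, with PDCD1, which encodes PD-1, at 1.63 ± 0.26 and FCRL1 at -1.36 ± 0.17. The co-stimulatory ligands CD86 (1.18 ± 0.11) and CD80 (1.18 ± 0.13) led the 4 higher of 12 antigen presentation genes, of which 2 were lower. BHLHE41, a regulator of B-1a cells in mice, led the marginal zone and B1 list at 2.12 ± 0.26, with 4 of 9 higher and CD9 lower at -1.35 ± 0.15.

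Among the remaining lists, higher and lower were 6 and 0 of 21 immediate early genes (NR4A2 at 1.29 ± 0.23), 1 and 0 of 14 heat shock genes, 2 and 2 of 18 NF-kB genes, 3 and 0 of 18 type I interferon genes (MX2 at 1.13 ± 0.15), 2 and 0 of 9 T-bet and type II interferon genes, 7 and 1 of 16 survival genes and 1 and 2 of 11 plasma cell genes. Of the other cell types' genes, 3 of 9 myeloid, 2 of 6 T-cell and 1 of 7 NK genes were higher, and 0, 1 and 2 were lower. Summed myeloid levels in the cells with neither gate gene were 348 and 207 CPM in meninges and 38.7 and 58.7 CPM in spleen, so the chosen cells were above them in meninges 2, spleen 1 and spleen 2 and below them in meninges 1. IGHM, the constant region of immunoglobulin M and the only heavy chain gene with enough counts, had 861 and 1589 CPM in meninges and 1684 and 1913 CPM in spleen in the chosen cells, against 2332 and 2698 CPM in meninges and 2273 and 1779 CPM in spleen. The spleen levels overlapped between the classes. The log2 difference of -0.65 ± 0.18 (adjusted p = 0.0239) was lost with DESeq2 (adjusted p = 0.247) and without meninges 1 (-0.38, adjusted p = 0.1).

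Against FCER2-positive B cells, the follicular-type cells of the same channels, the chosen cells differed further. Of 9412 genes tested 24.0% passed the threshold, 12.8% higher and 11.2% lower, and 21 of 25 atypical memory genes were higher and 2 lower, with a median log2 difference of 1.92. The count over all genes, 2255, was 1412 without meninges 1. FGR had 5.49 and 8.35 CPM in FCER2-positive cells of meninges and 8.27 and 5.95 CPM in those of spleen, which gave 4.08 ± 0.15. RGS16 (4.08 ± 0.12), ITGAM (3.70 ± 0.36), S100A4 (3.68 ± 0.13), the nuclear lamina gene LMNA (3.64 ± 0.17), TBX21 (3.49 ± 0.40), ZBTB32 (3.29 ± 0.28) and SIGLEC6 (2.78 ± 0.19) were also higher. Among the largest by size were further METRNL (3.47), LUZP1 (3.44), LGALS3 (3.19, and 3.89 without spleen 2), TESC (3.06, and 3.65 without spleen 2), lysozyme, LYZ (2.96), the endothelin receptor gene EDNRB (2.86) and KIF21A (2.82, and 3.44 without spleen 2). CFD was higher by 3.24 ± 0.36, by 2.63 without meninges 2, but did not pass with DESeq2 (2.13, adjusted p = 0.0568) and had the opposite sign with FCRL5 alone as the gate gene (-1.20).

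WIF1, a secreted inhibitor of Wnt signalling, was the largest fall among the genes named by size in that comparison. It had 2.78 and 3.97 CPM in meninges and 16.9 and 35.8 CPM in spleen in the chosen cells, against 92.3 and 88.6 CPM in meninges and 87.8 and 88.4 CPM in spleen in FCER2-positive cells (-2.76 ± 0.40, and -3.59 without spleen 2). LEF1 (-2.49 ± 0.46, and -3.14 without spleen 2), CR2 (-1.56 ± 0.29) and BACH2 (-1.27 ± 0.25, but -0.36 and below the threshold after thinning) were among the 9 lower of 12 genes that human atypical cells lose, of which 1 was higher. AKAP12, RGS9, CALY, NRGN, VPREB3, CD72, DEPP1, SIT1, FAM81A and GPR155 were lower by between -2.30 and -1.68 on the log2 scale. IGHM was lower too, at -1.17 ± 0.22 (adjusted p = 0.00462). With the classes set at full depth and each cell then thinned to 1000 UMIs, IGHM was seen in 34.9% and 34.2% of the chosen meningeal cells and 54.6% and 58.1% of the splenic ones, against 85.7% and 84.0% in meninges and 79.7% and 76.6% in spleen for FCER2-positive cells. NKG7-positive cells, as a background, had 3.31% and 3.64% in meninges and 7.24% and 8.08% in spleen, so a minority of the chosen meningeal cells and a majority of the splenic ones showed it at that depth.

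Between the tissues, the chosen cells of meninges had far more immediate early gene transcripts than those of spleen. Of 8617 genes tested, 27.4% passed the threshold, 16.5% higher and 10.9% lower, and all 21 immediate early genes tested were higher, with a median log2 difference of 3.65. FOS, a subunit of the AP-1 transcription factor, had 1856 and 1662 CPM in meninges, against 31.9 and 65.8 CPM in spleen (5.31 ± 0.19, adjusted p = 2.17e-11, and 5.93 without spleen 2). It was counted in 66.7% and 67.1% of the meningeal cells, against 8.52% and 13.3% of the splenic ones, and no cell held more than 8.82% of its UMIs. The nuclear receptor NR4A3 had 414 and 388 CPM in meninges, against 4.22 and 6.38 CPM in spleen (6.36 ± 0.16), and FOSB 512 and 537 CPM, against 13.1 and 11.8 CPM (5.52 ± 0.13). FOSL2 had 234 UMIs in the meningeal sums and 0 in the splenic ones, at least 85.4-fold higher when 3 counts are taken as the limit that a count of 0 over the group allows. ATF3 (6.37 ± 0.47), NR4A2 (4.86 ± 0.11), the cell cycle regulator RGCC (4.84 ± 0.21) and ZNF331 (4.74 ± 0.14) were also among the rises named by size, a rule that took genes with a mean log2 CPM of 5 or more.

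These transcripts were not confined to the chosen cells. The immediate early list summed to 10701 and 10935 CPM in the chosen cells of meninges, against 1833 and 1960 CPM in spleen, to 9549 and 9616 CPM in meninges against 1730 and 1575 CPM in spleen in cells with neither gate gene, and to 7088 and 7830 CPM in meninges against 1365 and 1372 CPM in spleen in FCER2-positive cells. Heat shock genes moved with them, 12 of 14 higher and 0 lower, at 7606 and 8127 CPM in meninges against 4134 and 4167 CPM in spleen. DNAJB1, a chaperone partner of HSP70, was higher by 2.72 ± 0.11 and HSPH1 by 2.59 ± 0.10. BAG3 had the largest value of the list, 3.86 ± 0.71, at 6.12 and 20.4 CPM in meninges against 1.41 and 0.491 CPM in spleen, and did not pass without meninges 2 (2.73, adjusted p = 0.0517). The part of tissue handling in these differences cannot be told apart from that of the tissue.

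Homing and positioning genes were mostly higher in the meningeal cells, 13 of 20, with 4 lower. CCR7, which guides cells to T-cell zones, had 275 and 289 CPM in meninges, against 24.4 and 20.6 CPM in spleen (3.78 ± 0.13). CD69, an early activation and tissue retention receptor, had 458 and 587 CPM in meninges, against 67.5 and 77.1 CPM in spleen (2.99 ± 0.13). GPR183, the oxysterol receptor that positions B cells outside follicles, had 1812 and 1910 CPM in meninges, against 298 and 264 CPM in spleen (2.86 ± 0.08). The channels of the tissues lay apart for each of these receptors. ITGA1, a collagen-binding integrin chain of resident lymphocytes, was lower, at 4.45 and 7.45 CPM in meninges against 39.8 and 39.3 CPM in spleen (-2.57 ± 0.27).

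Of 18 NF-kB genes 10 were higher in the meningeal cells and 3 lower: TNFAIP3, a brake on NF-kB, differed by 2.84 ± 0.15, and CD83, an activation marker, had 1386 and 1390 CPM in meninges, against 257 and 223 CPM in spleen (2.66 ± 0.08). Of 15 survival and death genes 7 were higher and 2 lower, led by the anti-apoptotic BCL2A1 (3.04 ± 0.10) and the pro-apoptotic PMAIP1 (2.30 ± 0.13) and BCL2L11 (2.04 ± 0.20). CD86 led the 7 higher of 12 antigen presentation genes, at 382 and 376 CPM in meninges against 157 and 162 CPM in spleen (1.38 ± 0.09), and 3 were lower. Of 12 classical memory genes 9 were higher and 2 lower, with CRIP2 at 2.54 ± 0.36 and CRIP1 at 1.80 ± 0.07 after GPR183. Of 9 marginal zone and B1 genes 4 were higher and 3 lower, led by CD9 at 2.43 ± 0.17, and of 10 plasma cell genes 3 were higher and 3 lower, led by IRF4 at 2.14 ± 0.12.

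**Figure D4:**
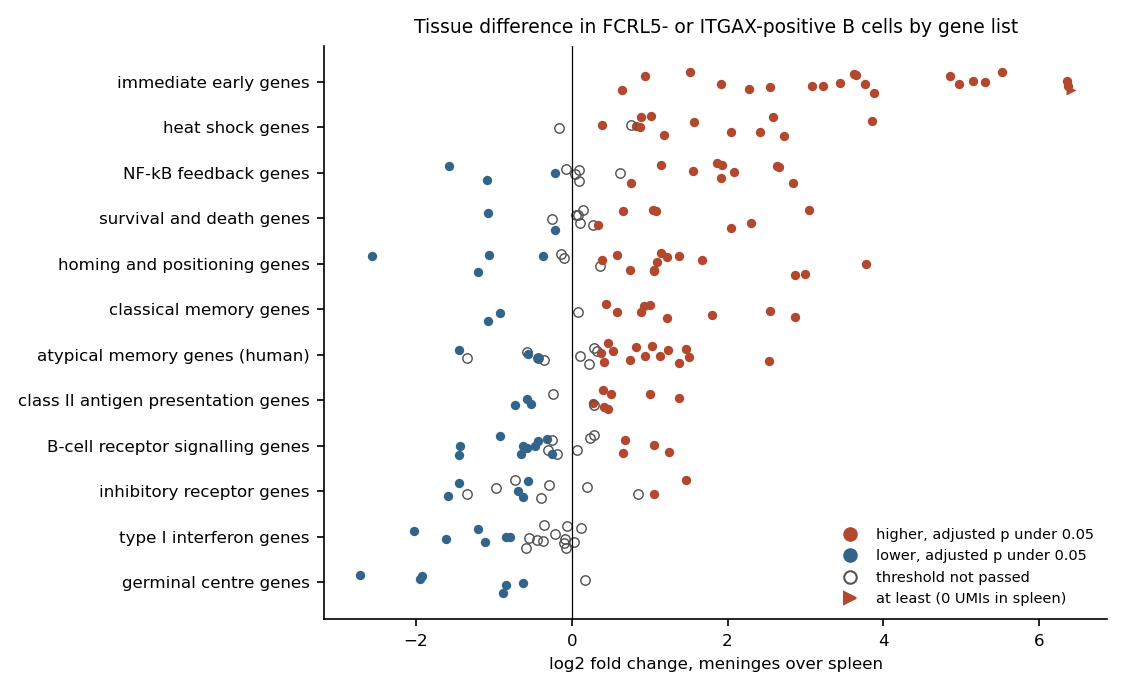
Log2 fold change of meninges over spleen in FCRL5- or ITGAX-positive cells, 1 point per gene tested in 12 gene lists; filled points passed an adjusted p of 0.05 (red higher, blue lower in meninges), open points did not, and the triangle is the lower bound for FOSL2. All 21 immediate early genes lie to the right of 0, and 6 of 7 germinal centre and 6 of 18 interferon genes are lower.

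The atypical memory genes differed between tissues in both directions. Of 25 tested, 14 were higher in meninges and 3 lower, with a median of 0.41, and after thinning 4 of 18 tested were higher and 0 lower. TNFRSF1B, the second receptor for tumour necrosis factor, had 196 and 199 CPM in meninges, against 35.1 and 39.8 CPM in spleen (2.53 ± 0.12). ZBTB32 (1.51 ± 0.25), PDCD1 (1.47 ± 0.14, below the threshold after thinning) and PDLIM1 (1.03 ± 0.11) were higher too. SOX5 (0.32 ± 0.13, adjusted p = 0.0859), SSPN (0.11 ± 0.14, adjusted p = 0.592), ZEB2 (0.29 ± 0.11, adjusted p = 0.0619) and TBX21 (-0.58 ± 0.32, adjusted p = 0.2) did not pass. Without meninges 2 SOX5 was at 0.48, and without meninges 1 ZEB2 was at 0.43. SOX5 passed with FCRL5 alone (0.60, adjusted p = 0.0224) and with a replicate block (0.33, adjusted p = 0.0482). ZEB2 passed with FCRL5 alone (0.51, adjusted p = 0.022), without the filter on low counts (0.29, adjusted p = 0.0328) and with the replicate block (0.28, adjusted p = 0.012). However, ZEB2 was at -0.30 after thinning and -0.03 with 2 or more UMIs of FCRL5 or ITGAX. IGHM was at -0.42 ± 0.18 (adjusted p = 0.0976), at -0.93 without meninges 2 and at -0.53 and -0.31 without either spleen channel. It passed without any UMI of 12 genes of other cell types (-1.04), with 2 or more UMIs (-1.23) and with FCRL5 alone (-0.58). It also passed without the top 5% of barcodes (-0.80), without the filter on low counts (-0.42) and with the replicate block (-0.48). It did not pass with DESeq2, with ITGAX alone, after thinning or with a stricter cell filter. Its meningeal channels differed from each other, at 861 and 1589 CPM. CR2 had the largest fall of the genes named by size, at 71.2 and 43.7 CPM in meninges against 373 and 278 CPM in spleen (-2.38 ± 0.17, and -1.48 after thinning). Of 11 genes that human atypical cells lose 6 were lower and 4 higher, with CCR7, CD44 (1.38 ± 0.09) and CXCR5 (1.15 ± 0.10) among the higher, and of 12 follicular naive genes 5 were lower and 4 higher.

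Genes of B-cell receptor signalling were more often lower, 10 of 20, with 4 higher. FCRL1 had 63.4 and 77.4 CPM in meninges, against 246 and 222 CPM in spleen (-1.59 ± 0.12) and led the 5 lower of 14 inhibitory receptor genes, of which 2 were higher. CD72 had 60.1 and 69.0 CPM in meninges, against 175 and 212 CPM in spleen (-1.45 ± 0.13), and BLNK, the adaptor that links the receptor to calcium signals, 37.8 and 35.7 CPM, against 111 and 107 CPM (-1.43 ± 0.14). Neither passed after thinning. LYN, a kinase of the same pathway, was higher at 1.25 ± 0.08. PLAC8 (-2.03), the complement receptor CR1 (-2.0), BEND5 (-1.87), EVL (-1.65), CHMP7 (-1.60), the cytokine gene LTA (-1.57), ACP5 (-1.46) and CD84 (-1.46) were the other falls named by size, of which EVL, CHMP7, LTA and CD84 also did not pass after thinning.

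Of 18 type I interferon genes 6 were lower and 0 higher. OAS3 (-2.03 ± 0.47) did not pass with DESeq2 and was at -1.56 without spleen 1. IFIT1 (-1.61 ± 0.36) did not pass with DESeq2, with 2 or more UMIs of FCRL5 or ITGAX, or with ITGAX alone. Without any UMI of 12 genes of other cell types IFIT1 was at -0.64 (adjusted p = 0.416). EPSTI1 (-1.21 ± 0.18) and OAS2 (-1.11 ± 0.21) passed with DESeq2, but EPSTI1 did not pass after thinning (-2.27, adjusted p = 0.0658). With DESeq2 2 of the 18 were lower. Of 7 germinal centre genes 6 were lower, led by MYBL1 at -2.72 ± 0.48 and ELL3 at -1.95 ± 0.31 (-2.61 without meninges 1). Of 17 cell cycle genes 3 were higher and 2 lower. CENPF, a kinetochore protein gene of dividing cells, was the largest, with 460 and 416 CPM in meninges against 57.6 and 34.9 CPM in spleen (3.37 ± 0.15), while MKI67, the usual marker of dividing cells, had 16.1 and 25.3 CPM in meninges against 33.3 and 19.1 CPM in spleen. CENPF was counted in 39.6% and 34.8% of the chosen meningeal cells, against 10.8% and 5.84% of the splenic ones, and in 45.8% and 47.5% of NKG7-positive cells of meninges, against 7.67% and 8.79% of those of spleen. Of 8 T-bet and type II interferon genes 2 were higher and 2 lower.

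Several of the largest tissue differences rested on few cells. CFD, a complement protease of fat and myeloid cells, had 132 and 557 CPM in meninges, against 2.34 and 1.96 CPM in spleen (7.42 ± 0.76), but was counted in 16 and 25 meningeal cells, against 3 and 2 splenic ones, and 1 cell held 51.5% of its UMIs in meninges 1. VMO1 (6.02 ± 0.82), the chemokine XCL1 (5.94 ± 0.38) and the cytokine IL1B (5.80 ± 0.56) were likewise sparse. VMO1 was counted in 12 and 22 meningeal cells, against 3 and 2 splenic ones, XCL1 in 9 and 16, against 0 and 6, and IL1B in 6 and 15, against 1 and 2. Without meninges 2 the log2 differences were 6.03 for CFD, 4.45 for VMO1 and 4.95 for IL1B, and XCL1 had 4.91 without spleen 1. All 8 myeloid genes tested were higher in meninges, 3 of 5 NK genes were higher and 0 lower, 3 of 6 T-cell genes were higher and 2 lower, and 1 of 3 plasmacytoid dendritic cell genes was higher. In cells without any UMI of 12 myeloid, T-cell and NK genes, 18 of 19 immediate early genes tested were higher, and 1442 of all genes passed in place of 2364.

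The tissue difference itself was compared between the chosen cells and the FCER2-negative cells with neither gate gene. Of 9111 genes tested 2.15% differed, 0.988% with a larger ratio of meninges to spleen in the chosen cells and 1.16% with a smaller ratio, 196 genes in all. The count was 53 without spleen 1 and 126 without meninges 2. Of the atypical memory genes 1 had a larger and 6 a smaller ratio, among them PDCD1 (-1.69 ± 0.24), CD72 (-1.60 ± 0.15) and ZEB2 (-1.03 ± 0.13). ZEB2, a transcription factor needed for CD11c-positive B cells in mice, had 185 and 226 CPM in meninges and 190 and 180 CPM in spleen in the chosen cells, against 143 and 169 CPM in meninges and 69.6 and 70.9 CPM in spleen in the others, so the classes lay closer together in meninges. CD72, at 60.1 and 69.0 CPM in meninges against 175 and 212 CPM in spleen in the chosen cells, had 251 and 285 CPM in meninges against 278 and 262 CPM in spleen in the cells with neither gene. CENPF had the reverse pattern, at 148 and 150 CPM in meninges against 67.7 and 66.4 CPM in spleen in the others, which gave a difference of 2.06 ± 0.18.

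IGHM also differed in its tissue ratio, by -0.96 ± 0.18 (adjusted p = 0.00743), which was lost with DESeq2 (adjusted p = 0.318) and without meninges 1 (-0.63, adjusted p = 0.107). Larger and smaller ratios were found for 0 and 5 of 21 immediate early genes, 1 and 5 of 18 NF-kB genes, 0 and 4 of 14 inhibitory receptor genes and 5 and 0 of 19 cell cycle genes.

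**Figure D5:**
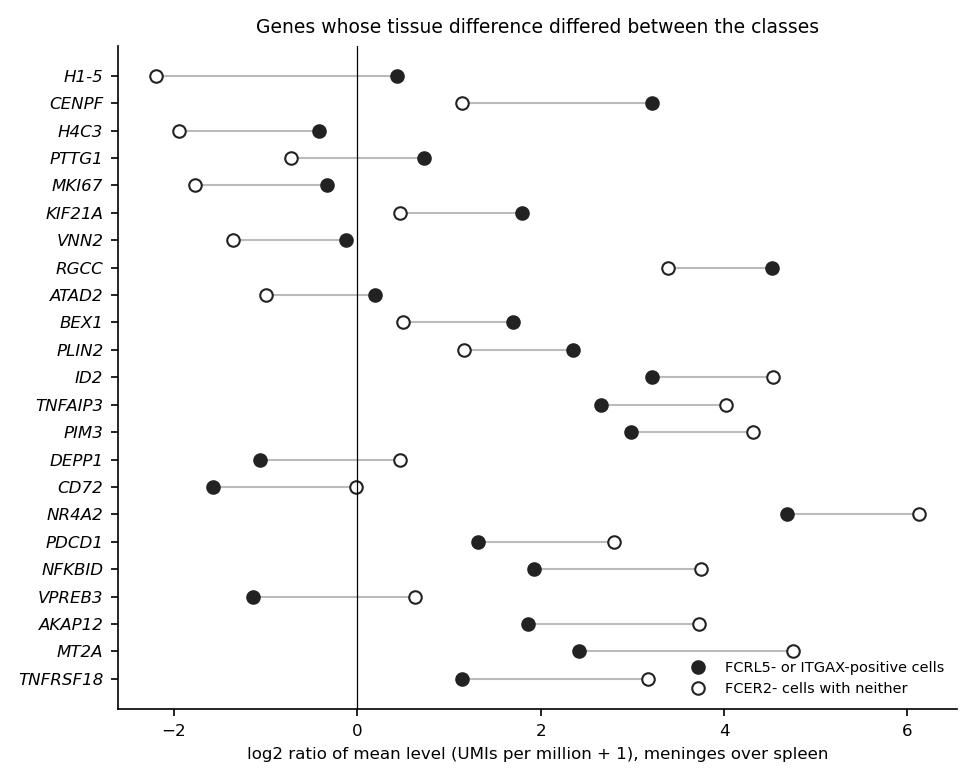
Log2 ratio of the mean level in meninges over that in spleen (CPM + 1) in FCRL5- or ITGAX-positive cells (filled) and in FCER2-negative B cells with neither gene (open), for the 23 genes named by size of the difference between these ratios. CENPF and H1-5 have the larger ratio in the filled class, TNFRSF18 and MT2A the larger ratio in the open class.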

How the data were processed

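Single-cell 3′-end expression was measured in 2 meningeal and 2 splenic macaque channels. The values are the authors' deposited UMI counts, not normalized, which come from Cell Ranger. The tool is named per the submitters' processing notes, with no version, and mm10 (mouse) is the only build listed; the sources used here do not give the macaque reference, so no coordinates or sequences are printed. In each table every gene has counts in 3 or more cells. All value columns were mapped to samples, and 0 were left out for want of a label. The mouse library was not used here.

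The members, gene lists and tests were chosen with earlier results of these data known. Counts of the chosen cells, of FCER2-negative MS4A1-positive B cells with neither FCRL5 nor ITGAX, and of FCER2-positive MS4A1-positive B cells (both with the same 6 excluded genes at 0) were summed per channel and tested with edgeR 4.0.16 in R 4.3.3 by its quasi-likelihood test, after TMM scaling and the filterByExpr filter, with p-values adjusted over all genes tested (Benjamini-Hochberg) and a threshold of 0.05. Classes were compared with the channel as a block, and the tissue difference was compared between classes with an interaction term in the same kind of fit. The 10 gate genes stayed in library sizes and were not tested. The comparisons share the sums of the chosen cells and are not independent of each other. Log2 fold changes are of normalized counts and can differ slightly from ratios of the printed CPM. The SE printed after ± was derived from the edgeR test, as the absolute log2 fold change over the square root of its F statistic. It was not estimated separately.

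Genes named by size were, per comparison and direction, the 12 with the largest log2 fold change among those past the threshold; they needed a log2 CPM of 5 or more on average, groups whose channels did not overlap (for paired comparisons, the same sign in all 4 channels) and a symbol, and immunoglobulin genes were left out. Some genes that the rule names are not reported here. Of the 24 gene lists, counts are given with the largest called members as examples.

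Alternatives were DESeq2 1.42.0, no filter on low counts, every cell thinned to 1000 UMIs, 500 or more genes and at most 10% mitochondrial UMIs, no UMI of 12 genes of other cell types (10 of them listed), 2 or more UMIs of FCRL5 or ITGAX, each gate gene alone, no barcodes in the top 5% by UMIs, leaving out each channel, and a replicate block. In the thinned shares and tests the gate was read after thinning. A cell that lost its UMIs of FCRL5 and ITGAX then counted among those with neither gene, and one that lost FCER2 among the FCER2-negative cells. Cells that lost their UMIs of an excluded gene could enter any class, and cells that lost MS4A1 left all of them. The part of these moves in class differences that shrank after thinning was not tested. Percentages of cells with a transcript at 1000 UMIs keep the classes set at full depth. No doublet caller was run, and the top 5% alternative is the only treatment of doublets. Computations used Python 3.11.15, numpy 2.4.6, scipy 1.17.1, pandas 2.3.3 and matplotlib 3.10.9. The test scripts were tested on simulated data.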

Additional observations from a re-analysis of the deposited data

Results flagged for a closer look

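For 23 genes the difference between meninges and spleen itself differed between FCRL5- or ITGAX-positive cells and FCER2-negative B cells with neither gene, by the interaction term in edgeR with Benjamini-Hochberg adjustment over 9111 genes. They are those reported here under the rule for named genes, and each value below is the log2 tissue difference in the FCRL5- or ITGAX-positive cells minus that in the other cells.

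The larger ratio of meninges to spleen was in the FCRL5- or ITGAX-positive cells for the histone genes H1-5 (2.73) and H4C3 (1.53), for CENPF (2.06), PTTG1 (1.45) and MKI67 (1.43), which are expressed in dividing cells, and for KIF21A (1.29), VNN2 (1.22), RGCC (1.20), ATAD2 (1.18), BEX1 (1.17) and the lipid droplet gene PLIN2 (1.16). The ratio of H1-5, H4C3, PTTG1, MKI67, VNN2 and ATAD2 was below 1 in the cells with neither gene. MKI67 had 16.1 and 25.3 CPM in meninges and 33.3 and 19.1 CPM in spleen in the FCRL5- or ITGAX-positive cells, against 30.5 and 34.5 CPM in meninges and 109 and 117 CPM in spleen in the others. Its high level in the splenic cells with neither gene stands beside this difference, and its part in it was not tested.

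The smaller ratio was in the FCRL5- or ITGAX-positive cells for TNFRSF18 (-2.41), the metallothionein gene MT2A (-2.36), AKAP12 (-1.90), VPREB3 (-1.87), NFKBID (-1.87), PDCD1 (-1.69), NR4A2 (-1.66), CD72 (-1.60), DEPP1 (-1.59), PIM3 (-1.45), TNFAIP3 (-1.44) and ID2 (-1.43). MT2A had 265 and 315 CPM in meninges and 50.1 and 56.4 CPM in spleen in the FCRL5- or ITGAX-positive cells, against 776 and 1509 CPM in meninges and 54.1 and 29.0 CPM in spleen in the others. TNFRSF18 had 97.9 and 79.4 CPM in meninges and 31.4 and 47.6 CPM in spleen, against 40.1 and 29.2 CPM in meninges and 2.75 and 3.13 CPM in spleen.

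Many of these differences did not pass under other settings. After thinning to 1000 UMIs 19 of the 23 did not pass, and CENPF (1.89), MT2A (-2.78), NFKBID (-1.81) and TNFAIP3 (-1.90) did. CENPF, MT2A and NFKBID passed in each of the 13 alternatives run, whereas RGCC was lost in 9 of 13, MKI67 in 7 of 12, ID2 in 6 of 13, AKAP12 in 5 of 13, and VPREB3, KIF21A and ATAD2 in 4 each. H1-5 was lost in 3 of 12, among them the alternative without the top 5% of barcodes by UMIs, where it was at -0.41, and VPREB3 was at 0.18 after thinning.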

How the results depend on the processing

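The share of FCRL5- or ITGAX-positive cells among FCER2-negative B cells was 17.6 percentage points higher in meninges, and 15.7 to 19.4 points higher with each channel left out. It was 1.08 points after thinning to 1000 UMIs, 13.6 without any UMI of 12 genes of other cell types, 10.7 with 2 or more UMIs of FCRL5 or ITGAX and 7.46 with FCRL5 alone. Among all barcodes the difference was -1.59 points (-1.66 to -1.51 with each channel left out), -3.48 after thinning, -2.16 with the stricter cell filter and -1.75 without the top 5% of barcodes, and it turned to 1.59 without the 12 genes, 0.167 with 2 or more UMIs and 0.177 with ITGAX alone.

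Genes past the threshold between tissues numbered 2364 (1900 to 2240 with each channel left out), 246 after thinning, 1442 without the 12 genes, 1128 with 2 or more UMIs, 1472 with FCRL5 alone and 1115 with DESeq2. Thinning left 3564 genes to test. The higher share of these calls was 60.2%, and 81.7% after thinning, 75.0% with DESeq2 and 68.1% with 2 or more UMIs. Against cells with neither gene the count was 1632 (1106 to 1215), 767 after thinning and 912 with DESeq2, and 54.5% were higher, against 44.7% after thinning. Against FCER2-positive cells it was 2255 (1412 to 1968) and 724 after thinning. For the difference of tissue differences it was 196 (53 to 193), 41 after thinning, 92 without the 12 genes, 123 with 2 or more UMIs, 61 with DESeq2, 302 with the stricter cell filter, 350 with ITGAX alone, 377 without the top 5% and 353 without the filter on counts; 45.9% were higher, against 26.8% after thinning, 34.4% with DESeq2 and 29.6% without spleen 2.

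With the replicate block 2695 genes passed between tissues, 2359 of them among the 2364. Deviations of the same-numbered channels correlated at -0.071 across 8617 genes, so the numbers were not taken to pair samples.

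Named genes that changed sign were H1-5 in the difference of tissue differences (-0.41 without the top 5%), VPREB3 there (0.18 after thinning) and CFD against FCER2-positive cells (-1.20 with FCRL5 alone). Below the threshold, SSPN between tissues changed to -0.14 with 2 or more UMIs, -0.23 with ITGAX alone and ran from -0.09 to 0.29 with each channel left out, and ZEB2 changed to -0.30 after thinning and -0.03 with 2 or more UMIs. The cause was not tested for any of these. Over all named genes and alternatives, 64 values lost the threshold in the difference of tissue differences, 37 between tissues, 21 against cells with neither gene and 3 against FCER2-positive cells, leaving out values to which DESeq2 gave no adjusted p. With 2 channels per tissue and single UMIs deciding the gate, genes of few UMIs and shares of cells are limited by depth.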
